A study of Mus musculus with 10 samples.

Results

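Integrins are the receptors that hold a cell to its matrix, and focal adhesion kinase is the enzyme recruited where they cluster. Transcripts of 9 integrin subunit genes and of Ptk2, which encodes focal adhesion kinase, were followed in endothelial cells sorted from mouse melanomas. The genes were taken by symbol: 6 alpha subunits (Itga1, Itga2, Itga3, Itga5, Itga6, Itgav), 3 beta subunits (Itgb1, Itgb3, Itgb5) and Ptk2. All 10 were found among the 28454 gene symbols measured.

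Every integrin is a pair of one alpha and one beta subunit, and the pairing sets which matrix protein is bound. In endothelium, beta 1 partners with alpha 1 and alpha 2 to bind collagen, with alpha 3 and alpha 6 to bind laminin, and with alpha 5 to bind fibronectin, while alpha v pairs with beta 3 or beta 5 to bind vitronectin and other proteins with an RGD motif. Clustered integrins recruit focal adhesion kinase through talin and paxillin, and the active kinase serves as a docking site for Src-family kinases and for adaptors that include Shb.

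The cells were CD31+ cells isolated with magnetic beads, after depletion of CD11b+ cells, from tumours of B16F10, a mouse melanoma line. The source name of every sample names tumours and lungs, while the titles and the tissue label name tumours only. The samples were treated as tumour endothelial cells. Tumours had grown in adult Shb-inactivated mice, labelled Shbflox/flox/Cdh5-CreERt2 (6 libraries), or in adult wild-type mice, labelled Cdh5-CreERt2 (4 libraries). Both groups therefore carried the inducible Cre driven by the endothelial Cdh5 promoter, and by their labels the floxed Shb allele set them apart. No label names the Cre inducer or when it was given. The comparison asks what loss of Shb, an adaptor protein with an SH2 domain, does to transcripts of tumour endothelium.

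The deposited values are FPKM, a fragment count scaled by transcript length and by the library's mapped fragments, so levels of different genes can be set side by side per length. Read totals are not part of FPKM, and the sequencing depth is unknown. Shb averaged 0.942 ± 0.414 FPKM in Shb-inactivated libraries (SD, n = 6) and 3.68 ± 1.19 FPKM in wild-type libraries (SD, n = 4), and the groups did not overlap. The 16 pan-endothelial markers summed to between 3927 and 5455 FPKM in Shb-inactivated libraries and to between 3383 and 4368 FPKM in wild-type libraries. Some libraries stood apart. Itgam, which encodes the depleted CD11b, was at 29.3 and 35.9 FPKM in Shb-inactivated replicates 3 and 4 and at 109 FPKM in wild-type replicate 3, against at most 5.85 FPKM elsewhere, and these 3 libraries are called rich in myeloid transcripts here. Shb-inactivated replicates 1 and 2 and wild-type replicate 1 had the lowest sums of 41 small nucleolar RNAs, at 636, 1846 and 1851 FPKM. The other libraries had 3138.5 to 11473 FPKM. These 3 are called low in small nucleolar RNAs here, a class set as the 3 lowest sums. Wild-type replicate 1 also had the highest sum of melanoma markers, 1135 FPKM.

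Groups were compared with limma on log2(FPKM + 1), for the 12805 genes that reached 1 FPKM in 4 or more libraries, with Benjamini-Hochberg adjustment over all of them. No gene passed an adjusted p of 0.05 (0 of 12805, a background of 0%), and none of the 10 integrin and Ptk2 genes did. At an unadjusted p under 0.05 the fit called 442 genes (3.45%), of which Itga6 was the only one among the 10. The exact permutation test over the 210 ways to place 10 libraries into groups of 6 and 4 had an unadjusted p under 0.05 for 495 of these genes, with Itga6 and Ptk2 among them, and none after adjustment. Fold changes below are differences of mean log2(FPKM + 1), with wild type subtracted from Shb-inactivated, and adding 1 makes the changes of low genes look smaller.

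**Figure D1:**
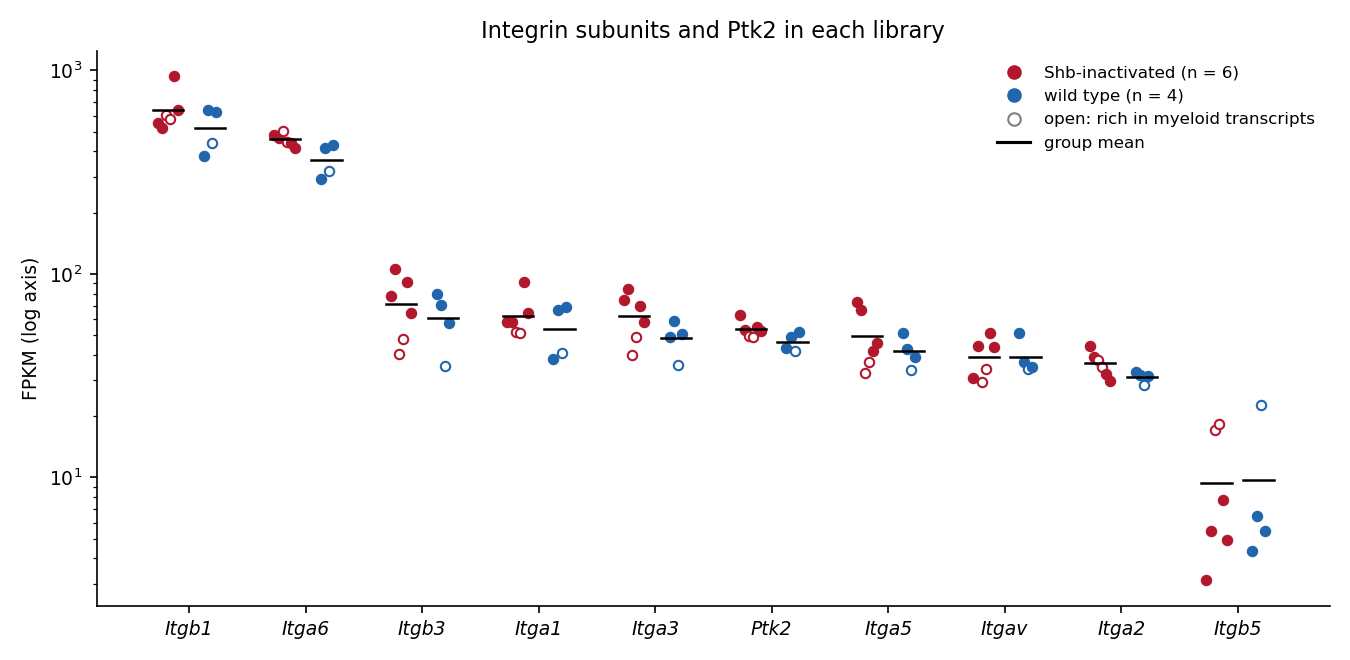
Level of each gene in every library (FPKM, log axis), Shb-inactivated libraries in red left of wild-type libraries in blue, with a line at the group mean and open points for the 3 libraries rich in myeloid transcripts. Itgb1 and Itga6 lie far above the other 8 genes, the 2 groups overlap for all 10 genes, and the open points are the highest for Itgb5 and the lowest for Itgb3.

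The beta 1 subunit and alpha 6 dominated the set in both groups. Ordered by their mean over the 10 libraries, the levels ran from Itgb1 (592 FPKM) and Itga6 (421 FPKM) through Itgb3 (67.1 FPKM), Itga1 (58.9 FPKM), Itga3 (56.8 FPKM), Ptk2 (50.7 FPKM), Itga5 (46.3 FPKM), Itgav (39.0 FPKM) and Itga2 (34.3 FPKM) to Itgb5 (9.55 FPKM). Itgb1 exceeded Itga6 in 10 of 10 libraries by a mean of 0.47 on the log2(FPKM + 1) scale, Itga6 exceeded Itgb3 in 10 of 10 by 2.69, and Itga2 exceeded Itgb5 in 10 of 10 by 1.99. Each of these 3 steps had an adjusted p of 0.00586 by an exact two-sided sign-flip permutation test within libraries, adjusted over the 9 neighbouring pairs. The order was taken from the same values, and any step with 10 of 10 libraries higher gets the smallest p this test allows. The p-value therefore adds no support beyond the counts of libraries. The other 6 neighbouring pairs, from Itgb3 down to Itga2, did not differ beyond their spread, with differences of 0.05 to 0.22 on the log2(FPKM + 1) scale and adjusted p-values of 0.207 to 0.613 by the same exact test. The middle of the order thus holds 7 genes with no settled order among neighbours.

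Itgb1 encodes the beta 1 subunit, the shared partner of the collagen, laminin and fibronectin receptors. It stood at 552, 521, 605, 578, 939.5 and 642 FPKM in Shb-inactivated replicates 1 to 6, against 382, 638, 438 and 623 FPKM in wild-type replicates 1 to 4. Shb-inactivated replicate 5 was the highest of all and wild-type replicate 1 the lowest, and the groups overlapped. Its mean was 639.6 ± 153 FPKM in Shb-inactivated libraries (SD, n = 6) and 520.0 ± 129 FPKM in wild-type libraries (SD, n = 4). This gave a log2 fold change of 0.30 (SE 0.21, 95% interval -0.16 to 0.77), with a limma adjusted p of 0.989. Leaving out wild-type replicate 1 gave 0.17 and leaving out Shb-inactivated replicate 5 gave 0.19. The value was 0.10 with array quality weights and 0.03 with a melanoma marker score as covariate. In bulk RNA of sorted cells such as these, fewer cells of a type and less RNA per cell cannot be told apart. Shb-inactivated replicate 5 also had the highest sum of the 10 pericyte and smooth muscle markers, 739.6 FPKM against 144 to 360.2 FPKM in the other Shb-inactivated libraries and 118 to 352 FPKM in wild-type libraries, and the part of these cells in its Itgb1 level was not tested.

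Itga1, whose protein pairs with beta 1 as a collagen receptor, followed Itgb1 from library to library. It was at 57.8, 58.1, 51.7, 51.5, 91.1 and 64.2 FPKM in Shb-inactivated replicates 1 to 6, against 38.0, 66.3, 40.9 and 69.1 FPKM in wild-type replicates 1 to 4. Shb-inactivated replicate 5 was again the highest and wild-type replicate 1 the lowest, with overlapping groups. Its mean was 62.4 ± 14.8 FPKM in Shb-inactivated libraries (SD, n = 6) and 53.6 ± 16.4 FPKM in wild-type libraries (SD, n = 4), a log2 fold change of 0.24 (SE 0.22, 95% interval -0.24 to 0.72; limma adjusted p = 0.989). Leaving out wild-type replicate 1 gave 0.09, leaving out wild-type replicate 3 or Shb-inactivated replicate 5 gave 0.13 each, and leaving out wild-type replicate 4 gave 0.38. Itga1 and Itgb1 had a Pearson r of 0.94 over the 10 libraries and 0.98 over the 7 that were not rich in myeloid transcripts, the closest pair among the 10 genes. The points of this correlation, as of those given further on, share whatever sets a library's depth and cell makeup.

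Itgb1 and Itga1 varied together most closely, and Itgb5 was highest in the 3 libraries rich in myeloid transcripts. For this reason the stretches of 250 bases before the start of these 3 genes are shown. They are RefSeq sequences on GRCm38.p6, written 5′ to 3′ on the strand of the gene: chr8:128685404-128685653 (plus strand) for Itgb1, chr13:115101965-115102214 (minus strand) for Itga1 and chr16:33829415-33829664 (plus strand) for Itgb5. Capitals mark the letters GGAAG or, on the other strand, CTTCC, a core bound by many ETS factors, the family of the endothelial regulator Erg.
Itgb1: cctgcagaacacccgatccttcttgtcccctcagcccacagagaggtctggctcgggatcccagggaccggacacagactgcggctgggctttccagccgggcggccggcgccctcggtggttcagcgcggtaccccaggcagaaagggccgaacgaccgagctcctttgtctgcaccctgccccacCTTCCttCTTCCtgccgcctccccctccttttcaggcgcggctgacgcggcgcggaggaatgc
Itga1: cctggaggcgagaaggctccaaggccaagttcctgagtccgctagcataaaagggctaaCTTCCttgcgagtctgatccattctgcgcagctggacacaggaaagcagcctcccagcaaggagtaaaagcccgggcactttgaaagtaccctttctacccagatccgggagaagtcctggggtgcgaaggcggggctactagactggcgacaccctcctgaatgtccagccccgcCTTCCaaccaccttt
Itgb5: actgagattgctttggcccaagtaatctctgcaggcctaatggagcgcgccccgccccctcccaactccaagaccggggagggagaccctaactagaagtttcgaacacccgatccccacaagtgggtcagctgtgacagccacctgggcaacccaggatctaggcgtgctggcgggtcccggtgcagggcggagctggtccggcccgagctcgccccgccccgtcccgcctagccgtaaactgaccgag
The Itgb1 and the Itga1 stretch hold 2 matches each and the Itgb5 stretch holds none. Among 32851 promoters of the same length, 64.1% hold at least 1 match, so a match is common and does not show a binding site. The letters GGGCGG, a GC box on either strand, occur 3 times in the Itgb5 stretch, once in that of Itgb1 and not in that of Itga1, and 32.7% of all promoters hold at least 1. In the 3 stretches shown, no match of one motif overlaps a match of another. The AP-1 letters TGANTCA occur in none of the 8 promoters listed for 7 of the 10 genes and in 6.75% of all promoters. G and C make up 68.0% of the Itgb1 stretch, 57.6% of that of Itga1 and 65.2% of that of Itgb5, against a median of 52.4% over all promoters.

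Itga2 encodes the other collagen-binding alpha subunit of the set, and its gene lies 20995 bases from that of Itga1 on chromosome 13. It was at 44.3, 39.1, 37.8, 34.9, 32.4 and 29.9 FPKM in Shb-inactivated replicates 1 to 6, against 32.8, 31.95, 28.5 and 31.5 FPKM in wild-type replicates 1 to 4. The 4 highest values were Shb-inactivated libraries, while replicates 5 and 6 of that group fell within the wild-type range. The mean was 36.4 ± 5.14 FPKM in Shb-inactivated libraries (SD, n = 6) and 31.2 ± 1.89 FPKM in wild-type libraries (SD, n = 4). The difference was 0.21 on the log2 scale (SE 0.12, 95% interval -0.05 to 0.47; limma adjusted p = 0.989). Although the genes are neighbours, Itga1 and Itga2 had a Pearson r of 0.01 over the 10 libraries.

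Itga6, the laminin-binding subunit that pairs with beta 1 or beta 4 and is abundant in endothelium, came closest to a difference between the groups. It was at 482, 467.5, 502, 443, 440.0 and 414 FPKM in Shb-inactivated replicates 1 to 6, against 293, 414, 319 and 432 FPKM in wild-type replicates 1 to 4. The 5 highest libraries were Shb-inactivated and the 2 lowest were wild-type replicates 1 and 3, while Shb-inactivated replicate 6 lay between wild-type replicates 2 and 4, so the groups overlapped. Its mean was 458 ± 31.9 FPKM in Shb-inactivated libraries (SD, n = 6) and 365 ± 68.7 FPKM in wild-type libraries (SD, n = 4), and 6 of 6 Shb-inactivated libraries lay above the wild-type median. Its log2 fold change came to 0.35 (SE 0.14, 95% interval 0.04 to 0.65), with an unadjusted limma p of 0.0292, a limma adjusted p of 0.989 and an unadjusted exact permutation p of 0.00952. The 16 pan-endothelial markers had a median log2 fold change of 0.32 (0.13 to 0.43), and on values centred on these markers in each library the log2 fold change of Itga6 was 0.03. Without wild-type replicate 1, the library richest in melanoma transcripts, it was 0.25, and leaving out the 3 libraries low in small nucleolar RNAs gave 0.22.

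Itga3, the other laminin-binding alpha subunit, was at 74.1, 84.5, 40.2, 49.0, 69.4 and 57.9 FPKM in Shb-inactivated replicates 1 to 6, against 48.8, 58.6, 35.6 and 50.4 FPKM in wild-type replicates 1 to 4. Shb-inactivated replicates 1, 2 and 5 were above every wild-type library, and the other 3 lay within the wild-type range. The mean was 62.5 ± 16.5 FPKM in Shb-inactivated libraries (SD, n = 6) and 48.4 ± 9.51 FPKM in wild-type libraries (SD, n = 4). On the log2 scale the difference was 0.34 (SE 0.22, 95% interval -0.13 to 0.82; limma adjusted p = 0.989), and 0.03 on centred values. Leaving out each library in turn gave 0.21 (wild-type replicate 3) to 0.46 (Shb-inactivated replicate 3). Leaving out the 3 libraries low in small nucleolar RNAs gave 0.16, while leaving out the 3 myeloid-rich libraries gave 0.43. Itga3 was at 35.6 to 49.0 FPKM in the myeloid-rich libraries and at 48.8 to 84.5 FPKM in the others.

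Itga5 encodes the fibronectin-binding subunit. It was at 72.6, 66.6, 32.5, 36.8, 41.8 and 45.6 FPKM in Shb-inactivated replicates 1 to 6, against 51.3, 42.8, 33.7 and 38.9 FPKM in wild-type replicates 1 to 4. The 3 highest values, 51.3 to 72.6 FPKM, came from the 3 libraries low in small nucleolar RNAs, and the 3 lowest, 32.5 to 36.8 FPKM, from the 3 rich in myeloid transcripts. The mean was 49.3 ± 16.4 FPKM in Shb-inactivated libraries (SD, n = 6) and 41.7 ± 7.41 FPKM in wild-type libraries (SD, n = 4), a log2 fold change of 0.19 (SE 0.23, 95% interval -0.32 to 0.71; limma adjusted p = 0.989). Leaving out the 3 libraries low in small nucleolar RNAs gave a log2 fold change of 0.02, and leaving out the 3 rich in myeloid transcripts gave 0.32. It was 0.07 without Shb-inactivated replicate 1, 0.10 without Shb-inactivated replicate 2, 0.10 without wild-type replicate 3, and 0.30 without either Shb-inactivated replicate 3 or wild-type replicate 1.

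Itgav, the alpha v subunit of the vitronectin receptors, had nearly the same mean in both groups. It was at 30.9, 44.2, 29.4, 34.1, 51.0 and 43.7 FPKM in Shb-inactivated replicates 1 to 6, against 51.0, 36.8, 33.95 and 34.99 FPKM in wild-type replicates 1 to 4. Shb-inactivated replicate 5 and wild-type replicate 1 were the highest. Shb-inactivated replicates 1 and 3 lay below every wild-type library, and the groups overlapped. The mean was 38.9 ± 8.67 FPKM in Shb-inactivated libraries (SD, n = 6) and 39.2 ± 7.97 FPKM in wild-type libraries (SD, n = 4). The log2 difference was -0.02 (SE 0.18, 95% interval -0.42 to 0.38; limma adjusted p = 0.997), and the interval does not show that the groups are alike.

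Itgb3 encodes beta 3, the partner of alpha v that marks angiogenic endothelium and that platelets also carry. It was at 77.9, 106, 40.5, 48.0, 91.4 and 64.1 FPKM in Shb-inactivated replicates 1 to 6, against 80.2, 70.3, 35.3 and 57.5 FPKM in wild-type replicates 1 to 4. The 3 libraries rich in myeloid transcripts, 35.3 to 48.0 FPKM, lay below all 7 others, 57.5 to 106 FPKM. The same 3 libraries had the highest sums of the 10 platelet and megakaryocyte markers, 516 to 1008 FPKM, against 95.1 to 351 FPKM in the others, a sum in which abundant genes weigh most. The mean log2(FPKM + 1) of the same markers did not show this, at 1.65 to 2.82 in the 3 libraries and 2.21 to 3.48 in the others, and Itga2b, the platelet partner of beta 3, was at 2.31 to 5.04 FPKM in the 3 and 5.95 to 16.3 FPKM in the others. The part of platelets in the Itgb3 level was not tested. The mean was 71.3 ± 25.3 FPKM in Shb-inactivated libraries (SD, n = 6) and 60.8 ± 19.4 FPKM in wild-type libraries (SD, n = 4), with a log2 fold change of 0.21 (SE 0.30, 95% interval -0.46 to 0.88; limma adjusted p = 0.989). Without wild-type replicate 3 the log2 fold change was -0.02. Leaving out Shb-inactivated replicate 2 or 5 gave 0.08 and 0.12, and leaving out wild-type replicate 1 or Shb-inactivated replicate 3 gave 0.36 each. Without the 3 libraries the means were 84.9 FPKM in 4 Shb-inactivated and 69.3 FPKM in 3 wild-type libraries.

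Itgb5, the alternative partner of alpha v, ran the other way. It was at 3.12, 5.45, 17.0, 18.3, 7.73 and 4.94 FPKM in Shb-inactivated replicates 1 to 6, against 4.34, 6.46, 22.7 and 5.45 FPKM in wild-type replicates 1 to 4. The 3 libraries rich in myeloid transcripts held 17.0 to 22.7 FPKM and the other 7 held 3.12 to 7.73 FPKM. The 12 macrophage markers summed to between 45.5 and 4894 FPKM in Shb-inactivated libraries, with a median of 59.8 FPKM, and to between 46.1 and 6674 FPKM in wild-type libraries, with a median of 436 FPKM; no marker was at 0 in any library. The part of macrophages in the Itgb5 level was not tested. The mean of Itgb5 was 9.43 ± 6.56 FPKM in Shb-inactivated libraries (SD, n = 6) and 9.74 ± 8.68 FPKM in wild-type libraries (SD, n = 4). Its log2 fold change was 0.0022 (SE 0.53, 95% interval -1.17 to 1.18; limma adjusted p = 1.0), the widest interval among the 10 genes. Without the 3 libraries the means were 5.31 ± 1.9 FPKM in Shb-inactivated libraries (SD, n = 4) and 5.42 ± 1.06 FPKM in wild-type libraries (SD, n = 3), and the log2 fold change was -0.06 (SE 0.26).

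**Figure D2:**
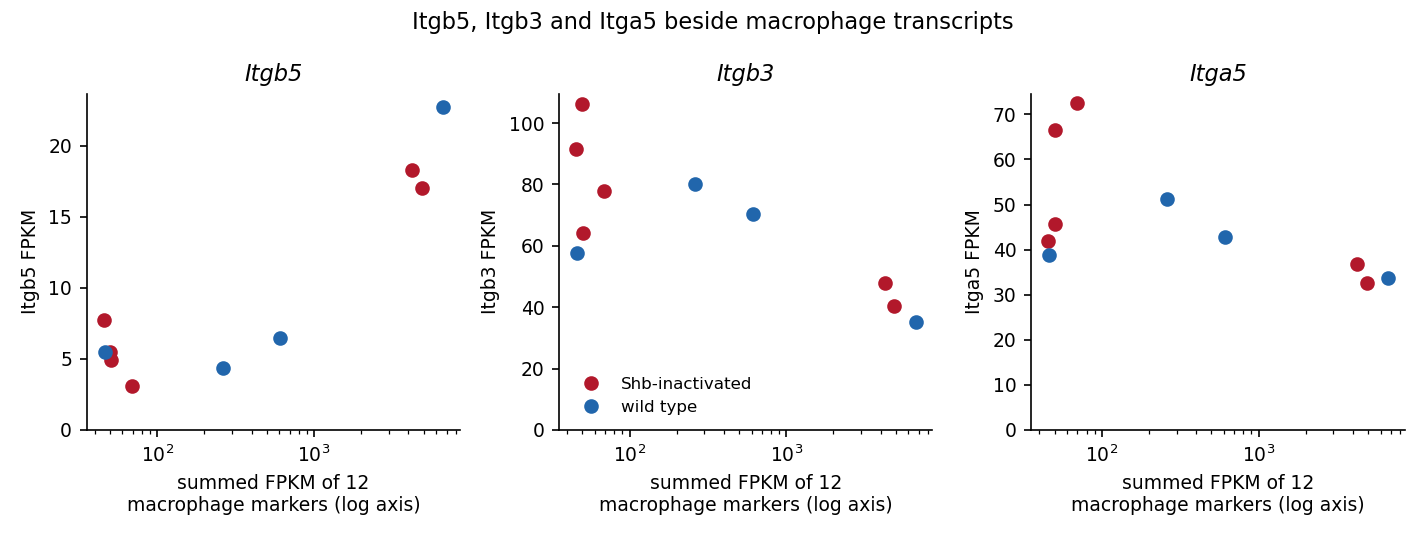
Itgb5, Itgb3 and Itga5 (FPKM, linear axis from 0) against the summed FPKM of 12 macrophage markers (log axis), 1 point a library, Shb-inactivated in red and wild type in blue. At the right of each panel the 3 libraries rich in myeloid transcripts hold the highest Itgb5 values (17.0 to 22.7 FPKM) and the lowest Itgb3 (35.3 to 48.0 FPKM) and Itga5 values (32.5 to 36.8 FPKM).

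Ptk2, the kinase to which Shb binds, was the steadiest of the 10 genes, with a coefficient of variation of 11.8% over the 10 libraries, against 14.0% to 73.3% for the integrin subunits. It was at 63.2, 53.0, 49.7, 48.7, 54.6 and 52.3 FPKM in Shb-inactivated replicates 1 to 6, against 43.1, 49.3, 41.9 and 51.6 FPKM in wild-type replicates 1 to 4. Shb-inactivated replicate 1 was the highest and wild-type replicates 1 and 3 the lowest, and 6 of 6 Shb-inactivated libraries lay above the wild-type median, though the groups overlapped. The mean was 53.6 ± 5.18 FPKM in Shb-inactivated libraries (SD, n = 6) and 46.5 ± 4.72 FPKM in wild-type libraries (SD, n = 4). This was a log2 fold change of 0.20 (SE 0.10, 95% interval -0.03 to 0.43), with an unadjusted exact permutation p of 0.0381 and a limma adjusted p of 0.989. On values centred on the pan-endothelial markers it was -0.11, and with the melanoma score as covariate 0.09. Leaving out the 3 libraries low in small nucleolar RNAs gave 0.11. Leaving out each library in turn gave 0.15 to 0.25, and TPM scaling gave 0.25.

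Over the 10 genes the median log2 fold change was 0.21, against 0.0055 over all 12805 genes tested. A value above 0 was found for 9 of the 10 genes, Itgav being the exception, and for 51.2% of all genes tested. Groups that did not overlap were found for 0 of the 10 genes and for 0.718% of all genes. Relative to the pan-endothelial markers the median of the 10 genes was -0.10 and that of all genes -0.30, and 2 of the 10 genes, Itga6 and Itga3, were above 0. Centring lowers the fold change of every gene by the same amount, so these signs follow from the sizes on the deposited scale and are no separate result. With array quality weights the median of the 10 genes was 0.13, and leaving out the 3 libraries low in small nucleolar RNAs gave 0.14. Markers of other cells shared a sign within each list. A log2 fold change above 0 was found for 0 of 9 melanoma markers (median -1.44) and 0 of 6 fibroblast markers (median -0.76). The counts were 0 of 8 platelet and megakaryocyte markers (median -0.86) and 10 of 10 pericyte and smooth muscle markers (median 0.25). None of these markers passed the threshold, and the summed level of each list overlapped between the groups. Melanoma markers summed to 15.2 to 348 FPKM in Shb-inactivated and 87.9 to 1135 FPKM in wild-type libraries, and fibroblast markers to 18.1 to 485 FPKM in Shb-inactivated and 91.6 to 419.9 FPKM in wild-type libraries. Their part in the values of the 10 genes was not tested.

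**Figure D3:**
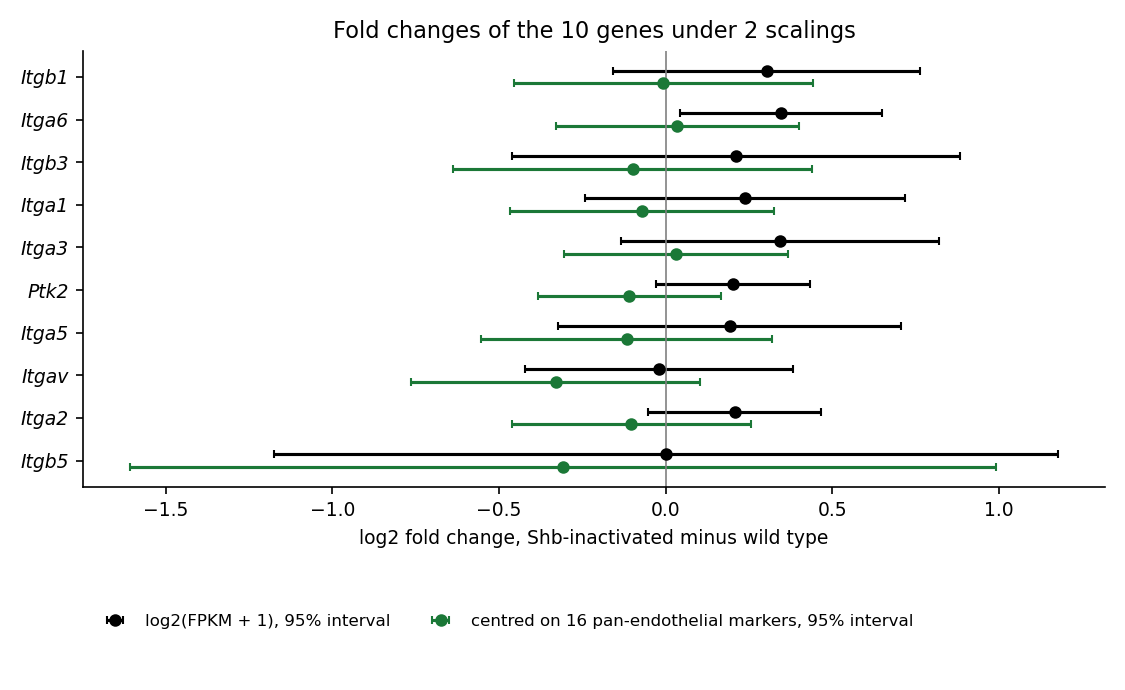
Log2 fold change of each gene (Shb-inactivated minus wild type, horizontal axis), with its 95% interval, on log2(FPKM + 1) values in black and on values centred on 16 pan-endothelial markers in green. On the deposited scale the interval of Itga6 alone, 0.04 to 0.65, lies off 0, and on the centred scale all 10 intervals include 0.

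Within a library, the balance between subunits was compared as the share of each alpha subunit in the summed FPKM of the 6, a ratio that a common scaling of a library does not move. Itga6 made up 64.9% ± 4.52 of this sum in Shb-inactivated libraries (SD, n = 6) and 62.8% ± 4.03 in wild-type libraries (SD, n = 4), with a range of 56.9% to 72.4% over the 10 libraries. The difference of 2.06 percentage points became 0.0961 when wild-type replicate 1 was left out, 0.563 when Shb-inactivated replicate 3 was, and 0.0489 when the 3 libraries rich in myeloid transcripts were. Other alternatives gave a larger difference. It was 3.05 without wild-type replicate 4, 3.55 with the replicate number as a block and 4.96 in the denominator of all integrin alpha subunits. That denominator includes leukocyte subunits. Among them is Itgam, at 109 FPKM in wild-type replicate 3 and at 29.3 and 35.9 FPKM in Shb-inactivated replicates 3 and 4. The part of leukocyte subunits in the 4.96 was not tested. Itga1 made up 8.83% ± 2.02 in Shb-inactivated and 9.10% ± 1.5 in wild-type libraries, Itga3 8.76% ± 1.86 in Shb-inactivated and 8.35% ± 1.06 in wild-type libraries, and Itga5 6.89% ± 1.9 in Shb-inactivated and 7.33% ± 1.8 in wild-type libraries. Itgav had the largest difference beside that of Itga6, with 5.51% ± 1.23 in Shb-inactivated and 6.95% ± 2.08 in wild-type libraries, a difference of -1.44 percentage points (-0.452 without wild-type replicate 1). Itga2 made up 5.13% ± 0.529 in Shb-inactivated and 5.47% ± 0.749 in wild-type libraries. No difference in the 6 shares passed the threshold, with an adjusted p of 0.752 for each by the exact permutation test. Among the beta subunits Itgb1 made up 88.6% ± 3.33 in Shb-inactivated and 87.6% ± 3.93 in wild-type libraries, Itgb3 10.1% ± 3.87 in Shb-inactivated and 10.6% ± 4.52 in wild-type libraries, and Itgb5 1.37% ± 1.05 in Shb-inactivated and 1.80% ± 1.85 in wild-type libraries. Each of the 3 had an adjusted p of 0.814 by the exact permutation test.

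By rank, Itga6 was the first of the 6 alpha subunits in 10 of 10 libraries, and the beta subunits kept the order Itgb1, Itgb3, Itgb5 in 10 of 10. Itga1 was second in 7 libraries. The exceptions were the 3 libraries low in small nucleolar RNAs, where Itga3 was second in Shb-inactivated replicates 1 and 2 and Itga5 in wild-type replicate 1. Itga2 was last in 7 libraries and Itgav in the other 3, all of them Shb-inactivated (replicates 1, 3 and 4).

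**Figure D4:**
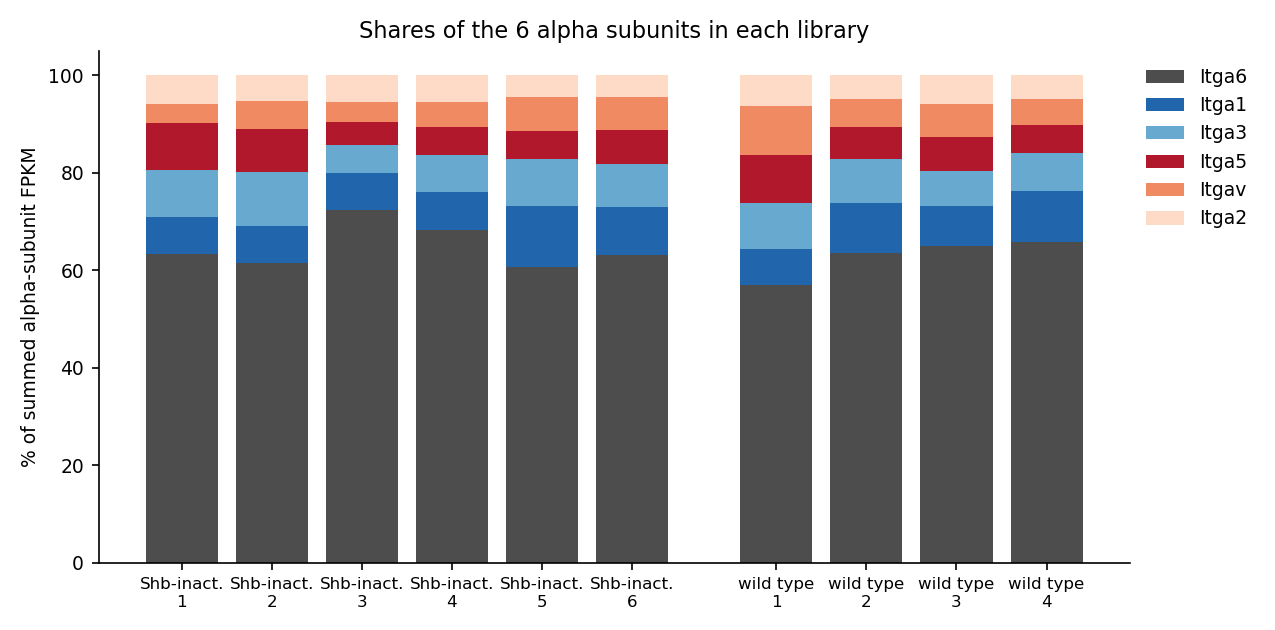
Share of each of 6 alpha subunits in their summed FPKM (percent, stacked to 100), for Shb-inactivated libraries at the left and wild-type libraries at the right. Itga6 fills 56.9% to 72.4% of every bar, and the remaining subunits trade places between libraries of both groups.

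Genes whose levels followed those of each subunit most closely were found among 9087 other tested genes with a mean of at least 5 FPKM, by Pearson's r over the 10 libraries, and are given as a description. For Itga3 the closest was Vcl, which encodes vinculin, a linker of integrin adhesions to actin (r = 0.986, and 0.969 over the 7 libraries not rich in myeloid transcripts). For Itga5 it was Hspg2, which encodes the basement membrane proteoglycan perlecan (r = 0.982 and 0.968), with Plxnd1, an endothelial semaphorin receptor, next to it (r = 0.982). For Itgb5 it was Ms4a6d (r = 0.987), whose value over the 7 libraries was 0.934. Itgb1 was followed most closely by Raet1e (r = 0.990), Itga1 by Ppic, a cyclophilin (r = 0.988), Itgb3 by 1700021K19Rik (r = 0.983), Itga6 by Tmtc2 (r = 0.963), Itgav by Ak4, an adenylate kinase (r = 0.946), Ptk2 by Ovca2 (r = 0.938) and Itga2 by Mapk1ip1l (r = 0.927). Among the 10 genes themselves, Itga3 and Itgb3 had an r of 0.90 over the 10 libraries and 0.74 over the 7, Itga2 and Itga5 had 0.63 and 0.92, and Itgb3 and Itgb5 had -0.80 and 0.13. Itga1 and Itgb5 had -0.31 over the 10 and 0.65 over the 7, so both of these Itgb5 values changed sign without the libraries rich in myeloid transcripts.

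Of the 17 other integrin subunits, 11 passed the filter on low values and none passed the threshold; 4 of the 11 had a log2 fold change above 0 and the median was -0.61 (-0.92 to 0.46). Itga9, a binding partner of beta 1, had 79.1 ± 14.4 FPKM in Shb-inactivated libraries (SD, n = 6) and 70.9 ± 5.48 FPKM in wild-type libraries (SD, n = 4), so that its mean exceeded that of Itga1. Itgb2, the beta subunit of leukocytes, had 35.04 to 90.88 FPKM in the 3 libraries rich in myeloid transcripts and 1.71 to 12.5 FPKM in the others, and averaged 14.1 ± 16.5 FPKM in Shb-inactivated libraries (SD, n = 6) and 29.1 ± 41.3 FPKM in wild-type libraries (SD, n = 4). The leukocyte subunits Itgal and Itgb7 averaged 0.758 and 2.60 FPKM in Shb-inactivated libraries and 1.74 and 5.13 FPKM in wild-type libraries. Beside these values, none of the 12 macrophage markers had a fold change above 0 (median -0.93 on the log2 scale), nor did any of the 6 lymphocyte markers tested (median -0.84). The part of leukocytes in the lower integrin values was not tested.

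Talin and the GTPase Rap1 switch integrins to the active state. Of 13 activators and inhibitors listed, 11 were found and 10 tested, and 5 of these had a log2 fold change above 0 (median -0.02). Rap1b had 273 FPKM in Shb-inactivated and 271 FPKM in wild-type libraries. Tln1 had 169 ± 12.1 FPKM in Shb-inactivated libraries (SD, n = 6) and 153 ± 13.4 FPKM in wild-type libraries (SD, n = 4), a log2 fold change of 0.14, while the low Tln2 had 1.14 FPKM in Shb-inactivated and 2.04 FPKM in wild-type libraries (log2 fold change -0.44). None of the 10 passed the threshold.

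Of 20 adaptors and actin linkers of focal adhesions, 17 had a log2 fold change above 0 (median 0.19) and none passed the threshold. Flna, a filamin, had 262 FPKM in Shb-inactivated and 259 FPKM in wild-type libraries, and Csrp1, a LIM-domain protein of the actin cytoskeleton, had 269.8 FPKM in Shb-inactivated and 234 FPKM in wild-type libraries. The smallest unadjusted p in the list was that of Hspb1, a small heat shock protein that acts on actin. It had 66.9 ± 11.8 FPKM in Shb-inactivated libraries (SD, n = 6) and 46.6 ± 7.78 FPKM in wild-type libraries (SD, n = 4), with a log2 fold change of 0.51 (SE 0.16) and a limma adjusted p of 0.989. Lims2, an adaptor bound by integrin-linked kinase, had 24.2 ± 8.31 FPKM in Shb-inactivated libraries (SD, n = 6) and 16.3 ± 1.56 FPKM in wild-type libraries (SD, n = 4), with a log2 fold change of 0.49 (SE 0.21) and the same limma adjusted p.

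Of 26 partners of focal adhesion kinase, 25 were tested, 21 had a log2 fold change above 0 (median 0.16) and none passed the threshold. The list includes Shb itself, whose log2 fold change was -1.27 (SE 0.21). Nck2, an adaptor that links tyrosine kinases to actin, stood at 26.3, 23.9, 28.0, 28.6, 26.7 and 22.6 FPKM in Shb-inactivated replicates 1 to 6, against 17.8, 21.3, 21.4 and 20.4 FPKM in wild-type replicates 1 to 4. Every Shb-inactivated library lay above every wild-type library, which 0.718% of all tested genes also showed in one direction or the other. Its log2 fold change was 0.35 (SE 0.10, 95% interval 0.12 to 0.57), with an unadjusted exact permutation p of 0.00952 and a limma adjusted p of 0.989. Nck2 was named for its small unadjusted limma p in this list. Its separation and its permutation p come from the values that chose it and add no support. The median log2 fold change of the 16 pan-endothelial markers was 0.32. The small GTPases Cdc42 and Rac1 were the most abundant partners, at 441 and 359 FPKM in Shb-inactivated and 394 and 313 FPKM in wild-type libraries, with log2 fold changes of 0.20 and 0.21.

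**Figure D5:**
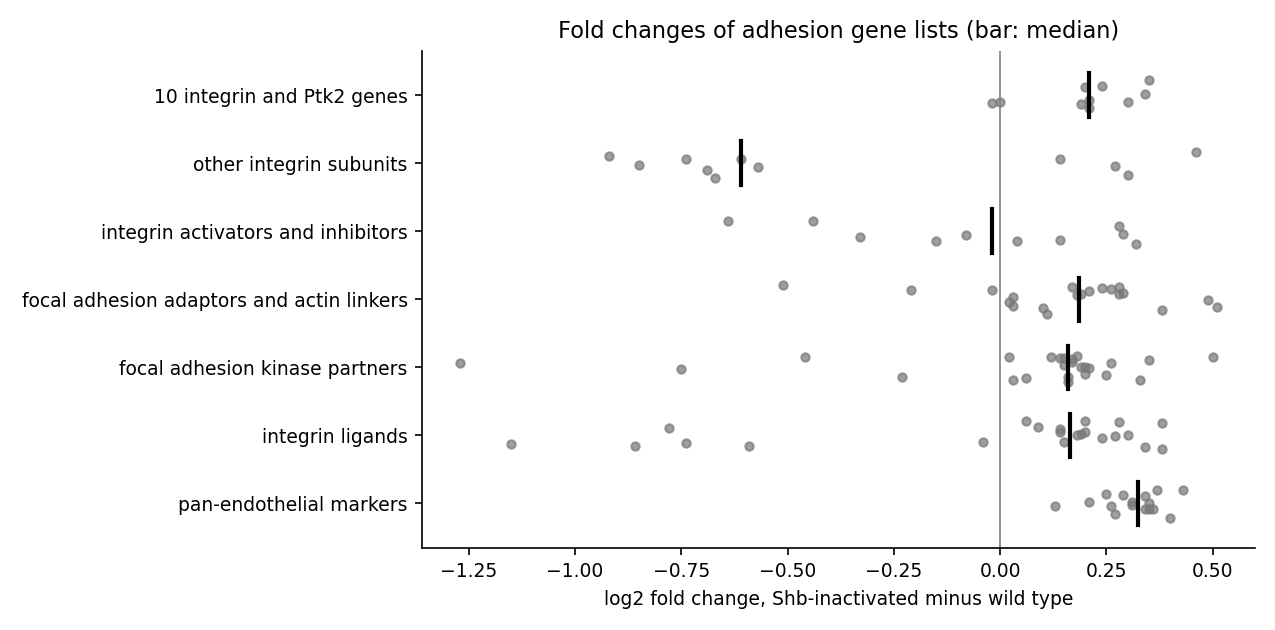
Log2 fold change (Shb-inactivated minus wild type) of each tested gene, 1 point a gene, in 7 lists, with a bar at the list's median. The 10 integrin and Ptk2 genes (median 0.21) lie near the adaptors (0.19), the kinase partners (0.16) and the ligands (0.16), below the pan-endothelial markers (0.32), while 7 of the 11 other integrin subunits lie below 0.

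Among 26 integrin ligands, 22 were tested, 16 had a log2 fold change above 0 (median 0.16) and none passed the threshold. Thbs1, a matrix protein bound by several integrins, averaged 505.5 FPKM in Shb-inactivated and 468.5 FPKM in wild-type libraries. Nid1, a basement membrane linker of laminin and collagen IV, had 289.6 ± 66.4 FPKM in Shb-inactivated libraries (SD, n = 6) and 227 ± 41.3 FPKM in wild-type libraries (SD, n = 4), a log2 fold change of 0.34 (SE 0.20). Cyr61, a secreted ligand of alpha v beta 3, had 154 ± 48.5 FPKM in Shb-inactivated libraries (SD, n = 6) and 116 ± 26.1 FPKM in wild-type libraries (SD, n = 4), a log2 fold change of 0.38 (SE 0.24). Col4a1, a collagen of the vessel basement membrane, was listed at 0 in 8 of the 10 libraries and at 3049 FPKM in Shb-inactivated replicate 2 and 1727 FPKM in wild-type replicate 1. Such a jump between 0 and the level of an abundant gene can be a failed estimate, and the gene was not tested.

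The 10 genes lie on chromosomes 2 (Itga6 and Itgav), 8 (Itgb1), 11 (Itga3 and Itgb3), 13 (Itga1 and Itga2), 15 (Itga5 and Ptk2) and 16 (Itgb5) of GRCm38. Itga6 spans chr2:71745616-71858416 on the plus strand and Ptk2 chr15:73205102-73423280 on the minus strand. Pelo, which averaged 16.1 FPKM, lies within Itga1 on the same strand, so reads of Itga1 and Pelo may have been split between them. The sources used here do not say whether the authors counted by strand. If strand was not used, genes annotated on the opposite strand within Itga1, Itga6, Itgav and Ptk2 can add reads that cannot be told apart from theirs. Those within Itga6 and Itgav averaged at most 0.86 FPKM.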

How the data were processed

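RNA of CD31+ cells from B16F10 tumours of 6 Shb-inactivated and 4 wild-type mice was sequenced, per the labels' protocols, from stranded libraries depleted of ribosomal RNA. The values deposited by the authors are FPKM for 28454 gene symbols per library, written with a decimal comma, per the file headers. TopHat2 2.1.1, Cufflinks 2.2.1 and GRCm38 stand in the submitters' processing notes. Their annotation and any use of strand are not stated in those notes or labels. FPKM holds no read totals, so depth is unknown. Among 192 olfactory receptor genes the most common value above 0 was 0.1 FPKM in wild-type replicate 1, 0.07 FPKM in replicate 2 of the Shb-inactivated group and 0.01 to 0.03 FPKM elsewhere, so low values are coarsest in those 2 libraries. Pairs of libraries had Spearman correlations of 0.892 to 0.951, and no pair was identical.

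Values were analysed as log2(FPKM + 1) with limma 3.58.1 (R 4.3.3), with a mean-variance trend, no covariate and two-sided tests. Genes needed at least 1 FPKM in 4 libraries. The threshold was an adjusted p of 0.05. The series text counts mice, and a p-value here measures the spread among these libraries. Single values and shares had two-sided exact permutation tests. Positions came from GENCODE vM21, in which 25987 symbols were found, and promoters from RefSeq. Python 3.11.15 and matplotlib 3.10.9 were also used. The limma step was tested on simulated data.

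The 10 genes, the gene lists and the marker lists were chosen with earlier results of these data known. Named were the 10 genes, Shb, Pecam1, Cdh5 and Itgam as checks, the 2 genes of each other adhesion list with the highest mean and the 2 with the smallest unadjusted p, and the genes most alike in pattern to each of the 10. Pecam1 averaged 963 ± 137 FPKM in Shb-inactivated and 759 ± 138 FPKM in wild-type libraries, and Cdh5 523 ± 83.9 FPKM in Shb-inactivated and 402 ± 26.3 FPKM in wild-type libraries. Alternatives changed the pseudocount (0.1 and 5), the filter, the scaling, the weights, the covariates, a replicate block and the libraries used. Those without 3 myeloid-rich libraries (Itgam above 20 FPKM) or 3 low in small nucleolar RNAs were added after the data were seen.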

Additional observations from a re-analysis of the deposited data

Results flagged for a closer look

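Of 20 groups of values checked (10 genes in 2 groups of libraries), 4 held a library far from the rest of its group, where chance flags about 1 group in 20. Shb-inactivated replicate 5 stood apart for both Itga1, at 91.11 FPKM against 51.49 to 64.22 FPKM in the other Shb-inactivated libraries, and Itgb1, at 939.53 FPKM against 521.29 to 642.30 FPKM. It had the highest sum of pericyte and smooth muscle markers, and the part of that in these values was not tested. Wild-type replicate 3 stood apart for Itgb5, at 22.69 FPKM against 4.34 to 6.46 FPKM in the other wild-type libraries, and had the highest sum of macrophage markers of all libraries. Wild-type replicate 1 stood apart for Itgav, at 51.01 FPKM against 33.95 to 36.83 FPKM, and had the highest sum of melanoma markers.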

How the results depend on the processing

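No gene passed the threshold in any of the alternatives, so none of the 10 did. Log2 fold changes are given throughout. The median of the 10 genes was positive under every alternative except centring on the pan-endothelial markers (-0.10), which lowered every gene alike, moved the median of all genes to -0.30 and gave -0.07 for Itga1, -0.10 for Itga2, -0.12 for Itga5, -0.0065 for Itgb1, -0.10 for Itgb3, -0.31 for Itgb5 and -0.11 for Ptk2. Itga1 was -0.03 with array quality weights and -0.08 with a melanoma score as covariate. Itgav was 0.03 on TPM scaling, 0.07 with weights and 0.07 with the melanoma score, 0.05 without the myeloid-rich libraries and 0.13 without those low in small nucleolar RNAs. Itgb5 was -0.0016 with a pseudocount of 0.1 and -0.06 without the myeloid-rich libraries. Leaving out each library in turn gave 0.09 to 0.38 for Itga1, 0.07 to 0.30 for Itga5, 0.17 to 0.41 for Itgb1, -0.10 to 0.11 for Itgav, -0.02 to 0.36 for Itgb3 and -0.24 to 0.48 for Itgb5. It gave 0.15 to 0.26 for Itga2, 0.21 to 0.46 for Itga3, 0.25 to 0.43 for Itga6 and 0.15 to 0.25 for Ptk2. Itga6 and Itga3 were positive in every alternative, and Itga6 ranged from 0.03 to 0.43, with 0.16 under weights and 0.21 with the melanoma score. Apart from the centring, the causes of these shifts were not tested.

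Differences in alpha shares, in percentage points, changed sign in the denominator of all integrin alpha subunits for Itga1 (0.199), Itga2 (0.00997) and Itga5 (0.0255), without the myeloid-rich libraries for Itga1 (0.032) and Itga5 (0.268), and without the libraries low in small nucleolar RNAs for Itga3 (-0.0398). The denominator of all integrin alpha subunits includes leukocyte subunits such as Itgam. With each library left out, the differences were -1.02 to 0.196 for Itga1, -0.0573 to 1.01 for Itga3 and -0.957 to 0.446 for Itga5. In the 6 Shb-inactivated libraries alone 0 neighbouring pairs were told apart, since the smallest exact p that 6 libraries allow misses the threshold after adjustment; the 4 wild-type libraries alone gave no tested value. Replicate numbers 1 to 4 occur in both groups. The deviations of same-numbered libraries had correlations of 0.436, -0.319, 0.707 and -0.546. Shb-inactivated replicates 1 and 3 deviated most like the wild-type library of the same number, and replicates 2 and 4 did not. Replicate 2 deviated most like wild-type replicate 1, and replicate 4 most like wild-type replicate 3. Shb-inactivated replicates 1 and 2 and wild-type replicate 1 are the libraries low in small nucleolar RNAs. Shb-inactivated replicates 3 and 4 and wild-type replicate 3 are those rich in myeloid transcripts. These values cannot tell whether the numbers pair the samples. With the replicate block the median of the 10 genes was 0.18, Itga6 was 0.39 and 0 genes passed the threshold.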
